A study of Mus musculus with 5 samples.

Results

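The cadherin superfamily was represented by 73 protein-coding gene records (72 symbols, as *Cdhr4* is annotated as 2 records) among the 22380 protein-coding genes of the NCBIM37 (mm9) mouse annotation. Members were all genes whose symbol starts with *Cdh* or *Pcdh*, together with *Fat1* to *Fat4*, *Celsr1* to *Celsr3* and *Dchs1*, and they were examined for genomic binding of the long non-coding RNA *Paupar* in N2A cells, an established mouse neuroblastoma line. CHART-Seq captures an RNA from crosslinked chromatin by hybridisation to biotinylated oligonucleotides and reads the DNA that is recovered along with it. The experiment comprised 2 *Paupar* pull-downs made with a mix of 4 oligonucleotides, 2 control pull-downs made with a *LacZ* oligonucleotide that has no target in the mouse genome, and 1 input DNA library, all from untreated N2A cells. The deposited result is a single list of 2849 peaks, each located on the genome and scored. It holds no value for a single library, so that the peaks carry no replicate error, the depth behind them is unknown, and no difference reported here was tested.

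Cadherins are calcium-dependent adhesion molecules that bind cells to each other through repeated extracellular domains. Classical cadherins connect to the actin cytoskeleton through catenins, protocadherins contribute to the recognition between neurites and cells, and the Fat, Dachsous and Celsr families orient cells within a tissue layer. In the nervous system they are known for sorting neurons, guiding axons and specifying synapses.

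Each gene was given a regulatory domain, from 5 kb upstream to 1 kb downstream of its start and extended in both directions to the nearest such interval of another protein-coding gene, by at most 1 Mb. A peak was assigned to every domain that holds its midpoint. Of the 73 members, 10 (13.7%) had at least 1 *Paupar* peak in their domain, beside 3676 of all 22380 genes (16.4%). Over 12 alternatives of processing, this order turned without chromosome 18 (19.6% against 16.5% of other genes). It also turned with each protocadherin cluster counted as 1 gene (19.2% against 16.4%), and in no other. The 10 members with a peak included the classical cadherins *Cdh5*, *Cdh11* and *Cdh22* and the atypical cadherins *Cdh13*, *Cdh23* and *Cdh26*. The others were the protocadherins *Pcdh1* and *Pcdh18*, and *Fat1* and *Fat3*. *Cdh11* and *Pcdh1* held 4 peaks each, *Fat1* held 2 and the other 7 held 1. Domains with 4 or more peaks made up 2.74% of the members and 0.608% of all genes. The remaining 63 members had no peak, among them *Cdh1* and *Cdh2*, which encode the epithelial and the neural classical cadherin, and every clustered protocadherin.

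Many cadherin genes lie in long stretches of sequence with few other genes. The median domain of a member was 188 kb long, against 89.4 kb for all other genes, and the median gene length was 34.7 kb against 15.4 kb. Members with a peak had a median domain of 1075 kb, and members without one had a median of 70.8 kb. When genes were compared with others of like domain length, none of the 17 members with a domain under 20 kb held a peak (3.47% of all such genes did) and none of the 17 members with a domain of 20 to 100 kb did (8.33% of all such genes). Among the 13 members with domains of 100 to 500 kb, 3 held a peak (23.1%), close to the 23.8% of all genes in that class. Of the 26 members with a domain over 500 kb, 7 held a peak (26.9%), beside 37.7% of all genes with such long domains.

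**Figure D1:**
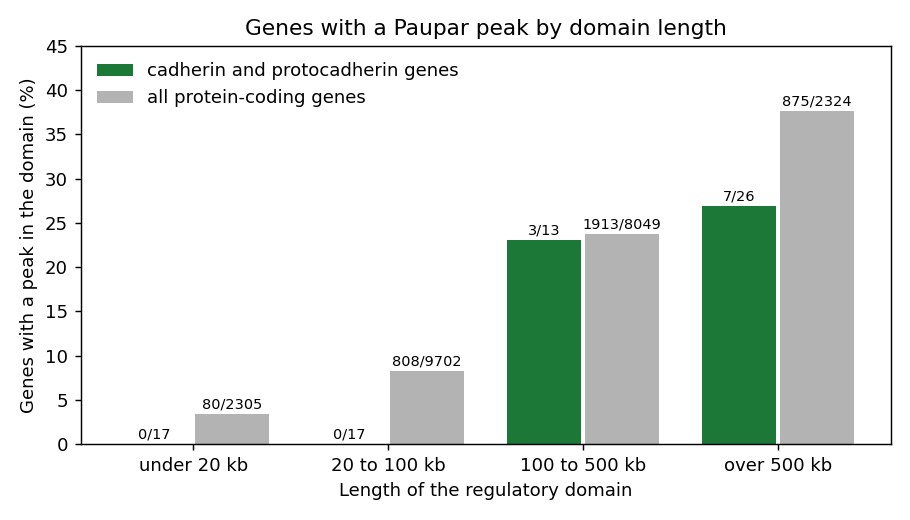
Share of genes with at least 1 *Paupar* peak in the regulatory domain (percent, vertical axis) by the length class of the domain, for cadherin and protocadherin genes (green) and all protein-coding genes (grey), with numbers of genes above the bars. Members with a peak are found in the 2 longest classes, and over 500 kb their share (26.9%) is below that of all genes (37.7%).

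Counted once each, 17 of the 2849 peaks fell in the domains of members. These domains cover 42.6 Mb, which gives 0.399 peaks per Mb, against 1.14 peaks per Mb in the domains of all other genes, a ratio of 0.351. Most of this sequence, 38.6 Mb, lies in domains over 500 kb, where members had 11 peaks or 0.285 per Mb and other genes 0.731. In domains of 100 to 500 kb the order was the opposite, with 6 peaks of members at 1.90 per Mb against 1.51 for other genes, but it rested on *Pcdh1*. Without this gene, left out after seeing the data, the other 12 members of the class held 2 peaks, or 0.686 per Mb. With the rate of each member's own chromosome, 51.3 peaks would lie in the same sequence. The exact Poisson 95% interval around a count of 17 runs from 9.90 to 27.2 and covers counting error only; 8 of the 17 peaks lie in just 2 domains, those of *Cdh11* and *Pcdh1*. Base composition moved with this deficit. Peak density over the genome rose with the GC content of 100 kb windows, from 0.197 per Mb in the windows with 32.3% to 37.4% GC to 2.68 per Mb in those with 46.6% to 56.5%, and the members' domains had a GC content of 38.9%, against 41.9% for other genes. At the rates of sequence of the same GC content, 26.4 peaks would lie in the members' domains, so that the observed number was 0.643 of it, whereas the ratio for all other genes was 1.01. This 26.4 lies within the counting interval around 17 (9.90 to 27.2), which is not a test and takes no account of peaks gathered in few domains. *Cdh11* and *Pcdh1* held 4 peaks each, where the same GC content gives 0.325 and 0.636. Members outside chromosome 8 held 9 peaks where it gives 19.6, and those on chromosome 8 held 8 where it gives 6.85. Whether GC content brought about the lower density was not tested.

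**Figure D2:**
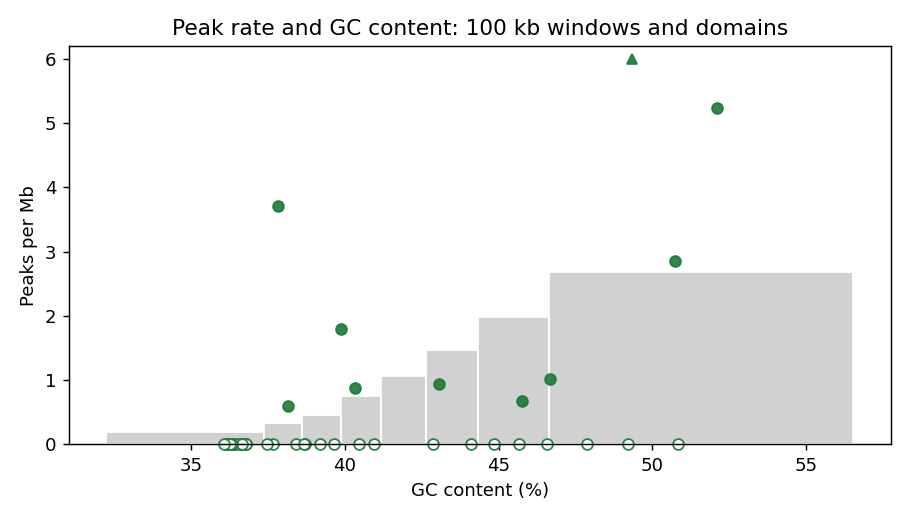
Peaks per Mb (vertical axis) against GC content (percent, horizontal axis), for 8 equal classes of 100 kb windows of the genome (grey bars, as wide as the class) and for the single domains of members of at least 100 kb (green circles, open where the domain holds no peak). The axis ends just above 6 peaks per Mb and the triangle stands for *Pcdh1*, at 16.9 per Mb; *Cdh11*, at 3.70 per Mb, lies above the bar of its own GC class.

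The type II classical cadherins, which have many members expressed in subsets of neurons, held 6 peaks in the domains of 3 of 13 genes (23.1%, beside 16.4% of all genes and 37.7% of those with domains over 500 kb; the median domain of the type II genes was 1441 kb). *Cdh11* (ENSMUSG00000031673, chr8:105156895-105309011, minus strand), known from mesenchyme and bone, held 4 of them in a domain of 1081 kb. Its peak closest to the start, chr8:105314558-105314856, was 299 bp wide, lay 5696 bp upstream in intergenic sequence and had a score of 7.17, which ranks 2695 among the 2849 peaks. The other 3 lay downstream, beyond the end of the gene. They were found 317198 bp from the start (chr8:104991639-104991988, score 8.25), 597360 bp from it (score 15.59) and 770667 bp from it (chr8:104538189-104538499, score 10.32). For all 4 of these peaks *Cdh11* was the protein-coding gene with the nearest start, and at the rate of the same GC content its domain would hold 0.325. The density in its domain was 3.70 per Mb, beside 2.30 for all genes of chromosome 8 and 1.13 for all protein-coding genes.

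*Cdh5* (ENSMUSG00000031871, chr8:106625525-106668402, plus strand) encodes the cadherin of endothelial junctions. Its 1 peak, chr8:105712066-105712262, was the narrowest of the 17, at 197 bp, and lay 913361 bp upstream with a score of 12.08 (rank 1529). The start nearest to it was that of *Gm8730*, at 322387 bp. A peak closer to *Cdh5*, 292 kb downstream of its start, lay outside the domain and was nearest to *Cmtm4*. *Cdh22* (ENSMUSG00000053166, chr2:164937007-165060353, minus strand), a type II cadherin expressed in brain, held a peak in an intron, chr2:165027232-165027591, 32942 bp downstream of its start and with a score of 13.43 (rank 1303). The other 10 type II genes had none, including *Cdh7*, *Cdh9*, *Cdh10* and *Cdh18*, whose domains measured 1999 to 2006 kb each and whose nearest peaks lay 3574 to 6258 kb away. At the rate of the same GC content, the domains of *Cdh7*, *Cdh9*, *Cdh10* and *Cdh18* would hold 0.393 to 0.459 peaks each. All type II domains would hold 6.27.

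No peak fell in the domain of any of the 5 type I classical cadherins, which bind strongly to cells of their own kind. *Cdh1* (ENSMUSG00000000303), on chromosome 8, had its nearest peak 186 kb from the start, and *Cdh2* (ENSMUSG00000024304) had it 1632 kb away. *Cdh3*, the placental cadherin, lies beside *Cdh1*, and the peak nearest to both, 93.3 kb from the *Cdh3* start with a score of 9.55, was closest to *Zfp90*. *Cdh4* (ENSMUSG00000000305), the retinal cadherin, lies on chromosome 2, as does *Cdh26*, and was 645 kb from the peak assigned to *Cdh26*. *Cdh15*, the muscle cadherin, had a peak of score 36.03 only 19126 bp upstream of its start, but that peak lies beyond the predicted gene *Gm16378*, whose interval ends the domain of *Cdh15*. At the rate of all domains the type I sequence would hold 2.67 peaks, and at that of the same GC content 2.59.

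The atypical cadherins had the largest share of genes with a peak of the subfamilies, at 3 of 5 (60%, beside 16.4% of all genes), with 1 peak each. The domains of these 3 genes were 351 to 1478 kb long, and 23.8% of all genes with domains of 100 to 500 kb and 37.7% of those with longer ones held a peak. *Cdh23* (ENSMUSG00000012819, chr10:59765496-60159238, minus strand), a component of the tip links of hair cells, held the widest of the 17 peaks, chr10:59938145-59939885, at 1741 bp. It lay in an intron 220223 bp downstream of the start, and its score of 19.2 ranked 688. *Cdh13* (ENSMUSG00000031841, chr8:120807633-121848821, plus strand), which encodes a cadherin anchored in the membrane by a lipid, held an intronic peak 716646 bp downstream of its start, chr8:121524116-121524442, with a score of 7.31 (rank 2668). *Cdh26* (ENSMUSG00000039155, chr2:178165236-178222071, plus strand) held an intergenic peak 366833 bp downstream, chr2:178531539-178532599, with a score of 10.31 (rank 1927). *Cdh16* and *Cdh17*, cadherins of kidney and of gut epithelium, had none. The 3 peaks compare with 6.94 at the rate of the same GC content, of which *Cdh13* accounts for 3.21 and *Cdh26* for 2.37.

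In the Fat and Dachsous group, which comprises very large cadherins that act in planar polarity and growth control, 2 of 5 genes (40%, beside 16.4% of all genes) held 3 peaks, and the same GC content gives 3.30. The median domain of this group was 1119 kb, and 37.7% of all genes with domains over 500 kb held a peak. *Fat3* (ENSMUSG00000074505, chr9:15714649-16182681, minus strand), which acts in the shaping of retinal neurons, held the peak with the highest score of the 17, 22.96 (rank 475). It measured 428 bp (chr9:16232996-16233423) and lay 50528 bp upstream of the start in intergenic sequence, with *Fat3* as its nearest gene. *Fat1* (ENSMUSG00000070047, chr8:46035562-46137611, plus strand) held an intronic peak of 1076 bp, chr8:46122616-46123691, 87591 bp downstream of its start with a score of 19.03 (rank 699). Though inside *Fat1*, this peak was closer to the start of *Mtnr1a*, a melatonin receptor gene, at 31338 bp. The other *Fat1* peak, chr8:45385750-45386143, lay 649616 bp upstream with a score of 7.29 (rank 2671), and its nearest start was that of *Adam34*. *Fat2* had its nearest peak 82.8 kb away, outside its domain and closest to *Sparc*. For *Fat4* and *Dchs1*, a receptor and its ligand, the nearest peaks lay 910 kb and 1740 kb away.

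**Figure D3:**
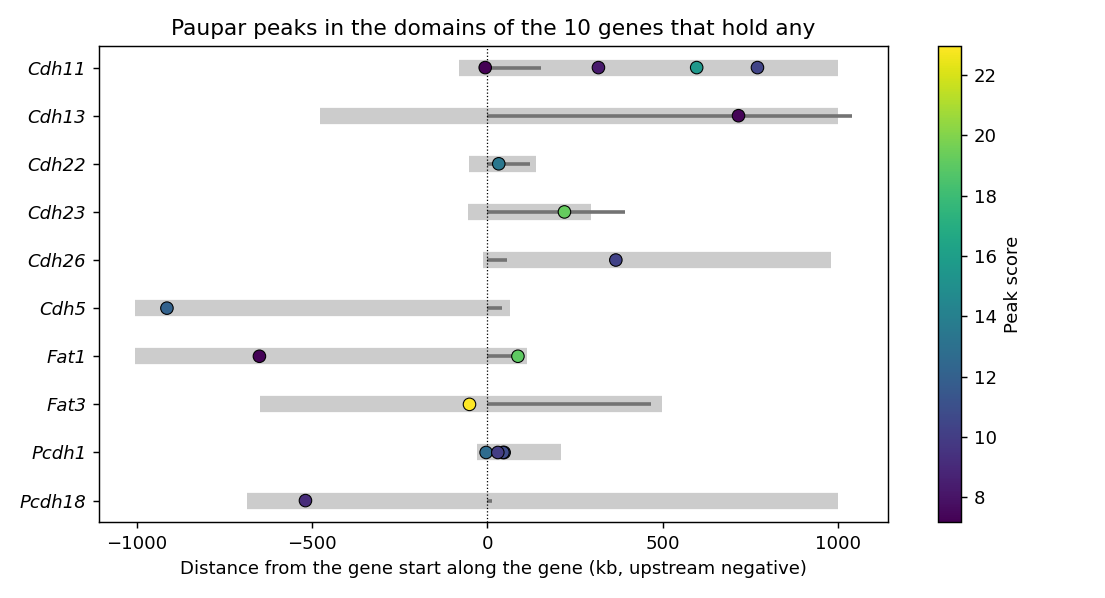
Position of the 17 *Paupar* peaks (circles, coloured by peak score) relative to the start of the 10 members that hold them (kb along the gene, upstream negative), with the regulatory domain as a light bar and the gene as a dark line. Those of *Pcdh1* lie within 48305 bp of its start, whereas 3 of the *Cdh11* peaks lie beyond the end of the gene.

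The scores and widths of the 17 peaks lay within the range of the list. Their median score was 10.78 (range 7.17 to 22.96), beside a median of 12.7 (range 5.34 to 305.37) for the other 2832 peaks, and their median width was 428 bp beside 556.5 bp. A score of at least 10 was reached by 11 of the 17 and by 2004 of the 2832 others. The median distance to the start of the member was 220 kb. Of the 17 peaks, 6 lay upstream and 11 downstream of the start, 8 within 100 kb and 9 farther away. Inside the genes themselves there were 4 peaks, all in introns, in 10.8 Mb of member gene sequence (0.370 per Mb), against 1339 in 984 Mb of other genes (1.36 per Mb). Neither GC content nor gene length was matched in this comparison. The protein-coding start nearest to the peak was that of a member for 11 peaks and of another gene for 6, and 15 of the 17 also lay in the domain of another gene.

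Few members had a peak near the start. Within 5 kb, *Pcdh1* was the only member with a peak in its domain (1.37%, beside 2.23% of all genes). Within 100 kb there were 5 such members, *Fat1*, *Fat3*, *Cdh11*, *Cdh22* and *Pcdh1* (6.85%, beside 11.8% of all genes). For 21 members the nearest peak anywhere on the chromosome was over 1 Mb from the start. The share of all genes at such a distance was not counted, so that this number has no comparison.

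The sequence under the peaks was searched for exact matches to the capture oligonucleotides on both strands. The part of such matches in the recovery of these peaks was not tested. The 4 *Paupar* oligonucleotides and the *LacZ* control, as listed in the study's supplement, are shown because each match below is read against them.
Paupar oligonucleotide 254: ggcttaagtccacccctggattcg
Paupar oligonucleotide 428: gcctggaactagatcaaggcagag
Paupar oligonucleotide 2041: ctctcagaaactgcgatacaaaag
Paupar oligonucleotide 2067: gaggcctagtcaaaatatctccac
LacZ oligonucleotide: catgattacggattcactggccgtc

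Matches of at least 10 nt to a *Paupar* oligonucleotide were found in 3 of the 17 peaks (17.6%) and in 2 of 34 flanking regions of the same width (5.88%). The other 2832 peaks held such a match in 24.6% and their flanks in 10.3%. The 3 peaks belonged to *Cdh5* (1 peak) and *Pcdh1* (2 peaks), and no match was longer than 10 nt, whereas 7.42% of the other peaks had one of at least 11 nt. A match of at least 9 nt was present in 5 of 17 peaks and in 11 of their 34 flanks (32.4%), beside 58.7% of the other peaks and 34.6% of their flanks. The shares of peaks with a match or 6-mer were not adjusted for width, and the 17 peaks were narrower (median 428 bp, beside 556.5 bp). None of the 17 matched the *LacZ* oligonucleotide over 10 nt (0.282% of the other peaks did). The 6-mer CACCCC, which is part of oligonucleotide 254, stood on either strand in 6 of the 17 peaks (35.3%) and in 1498 of the 2832 others (52.9%). The median GC content of the 17 peaks was 46.9%, and that of their flanks 41.3%, beside 48.1% and 45.4% for the other peaks.

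The following sequences of the plus strand of mm9 show the longest match of a peak to a *Paupar* oligonucleotide or its complement in capitals. They are the whole *Cdh5* peak, with its 10 nt match to the complement of oligonucleotide 2067 (chr8:105712066-105712262), the whole *Cdh11* peak nearest to the gene start, with a match of 9 nt to oligonucleotide 2041 (chr8:105314558-105314856), and the surroundings of the longest match in the *Fat3* peak, of 8 nt (chr9:16233189-16233256).
Cdh5 peak: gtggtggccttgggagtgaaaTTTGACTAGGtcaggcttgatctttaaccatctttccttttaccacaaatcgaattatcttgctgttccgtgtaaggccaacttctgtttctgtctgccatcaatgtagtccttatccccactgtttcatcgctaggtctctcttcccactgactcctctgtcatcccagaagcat
Cdh11 peak upstream of the start: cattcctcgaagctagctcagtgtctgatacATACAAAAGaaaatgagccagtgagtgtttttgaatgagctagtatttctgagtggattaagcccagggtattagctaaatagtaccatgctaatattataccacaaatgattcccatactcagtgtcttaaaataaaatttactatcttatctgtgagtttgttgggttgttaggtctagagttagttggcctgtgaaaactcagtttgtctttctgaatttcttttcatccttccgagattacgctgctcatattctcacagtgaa
Fat3 upstream peak: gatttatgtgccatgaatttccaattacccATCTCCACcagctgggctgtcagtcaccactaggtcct

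The median longest match was 8 nt in the 17 peaks and 9 nt in the others.

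Position on the chromosomes also differed. Chromosome 8, the most densely bound of the chromosomes with members at 2.30 peaks per Mb of domain, carries 9 members, and 4 of them (44.4%) held a peak, beside 304 of the 1082 genes of that chromosome (28.1%). They were *Fat1*, *Cdh5*, *Cdh11* and *Cdh13*. Their domains and those of the other 5 members there held 8 peaks in 6.16 Mb (1.30 per Mb), where the chromosome's own rate gives 14.2 and that of the same GC content 6.85. Of the 64 members on other chromosomes, 6 held a peak (9.38%), beside 15.8% of all genes there. The 9 peaks of those members lay in 36.5 Mb, or 0.247 per Mb beside 1.06 for all genes outside chromosome 8, and the same GC content gives 19.6. The most domain sequence without a peak was on chromosome 15, where *Celsr1* and the type II cadherins *Cdh6*, *Cdh9*, *Cdh10*, *Cdh12* and *Cdh18* had 0 peaks in the 8.41 Mb that their domains cover. The rate of that chromosome gives 12.9 peaks for this length, and that of the same GC content gives 2.73. On chromosome 14, 6 members had 0 peaks in 5.67 Mb, where the chromosome's rate gives 3.33 and the same GC content 1.68, and 9.97% of all its genes held a peak. On chromosome 1, *Cdh7*, *Cdh19* and *Cdh20* had 0 in 4.48 Mb, where these rates give 4.999 and 1.36, and 21.8% of all its genes held one. Chromosome 18 went the other way, with 4 peaks in the 2.80 Mb of its 27 members (1.43 per Mb, beside 0.649 for all its genes), where these rates give 1.82 and 2.22, and all 4 were those of *Pcdh1*.

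The delta-protocadherins, single genes that are mostly expressed in the developing brain, held 5 peaks in the domains of 2 of 9 genes (22.2%, beside 16.4% of all genes and 37.7% of those with domains over 500 kb; the median domain of this group was 1686 kb). *Pcdh1* (ENSMUSG00000051375, chr18:38345569-38371707, minus strand) held 4 of them in 237 kb, or 16.9 per Mb, the highest density of any member. The peak nearest to its start, chr18:38374138-38375529, was 1392 bp wide, lay 3126 bp upstream within the non-coding gene *2010320O07Rik*, and had a score of 12.69 (rank 1426). The others lay 30216 bp (chr18:38341050-38341933, score 9.96), 44983 bp (chr18:38326203-38327245, score 10.78) and 48305 bp (chr18:38323068-38323737, score 12.13) downstream of the start, beyond the end of the gene. At the rate of the same GC content its domain would hold 0.636 peaks. *Pcdh18* (ENSMUSG00000037892, chr3:49547218-49561238, minus strand) held 1 peak of score 9.1 (rank 2239) in a domain of 1686 kb, 518318 bp upstream of its start, and that peak was nearer to *Slc7a11*, at 167979 bp. *Pcdh7*, *Pcdh9*, *Pcdh10* and *Pcdh17*, each with a domain of 2006 kb, had none, nor had *Pcdh11x* and *Pcdh19* on the X chromosome. At the rate of the same GC content, each of these domains would hold 0.309 to 0.484 peaks, and those of all 9 delta-protocadherins 4.03. The nearest peak to *Pcdh11x* was 11460 kb away, the farthest for any member. Among the other single protocadherins, *Pcdh12* had the nearest peak, 69.2 kb away and in the domain of *Pcdh1*, while *Pcdh15*, the partner of *Cdh23* in tip links, was 1684 kb from one.

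The clustered protocadherins, whose many variants give neurons their individual surface identity, had no peak in any of their 24 records. These were 2 of the alpha cluster, 21 of the beta cluster and 1 of the gamma cluster, all on chromosome 18 and together 0.988 Mb of domain. That length would hold 1.11 peaks at the rate of all domains and 0.938 at that of the same GC content, so that a count of 0 sets no difference apart at this number of peaks. Their nearest peaks lay 389 to 809 kb away. Only reads with a single best position were kept by the study, and how much of the clusters such reads can cover was not tested. Without the clusters, 10 of 49 members held a peak (20.4%), above the 16.4% of all genes, whereas the share over all 73 members (13.7%) was below it. The median domain of these 49 genes was 1006 kb, and 37.7% of all genes with domains over 500 kb held a peak. Their density of 0.408 peaks per Mb was below the 1.13 of all domains.

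The 3 Celsr genes, cadherins with several membrane passes that act in planar polarity and axon tract formation, had no peak in their domains, which sum to 0.271 Mb and would hold 0.305 peaks at the rate of all domains and 0.690 at that of the same GC content. *Celsr1* (ENSMUSG00000016028) had a peak 20301 bp upstream of its start with a score of 12.88, just outside the domain and nearest to *Gramd4*. *Celsr3* had one 172 kb away and *Celsr2* one 211 kb away. The 6 cadherin-related records, among them *Cdhr1* of photoreceptors and *Cdhr2* and *Cdhr5* of the brush border, had none in 0.325 Mb, where these rates give 0.366 and 0.720. A count of 0 sets neither group apart at such numbers.

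**Figure D4:**
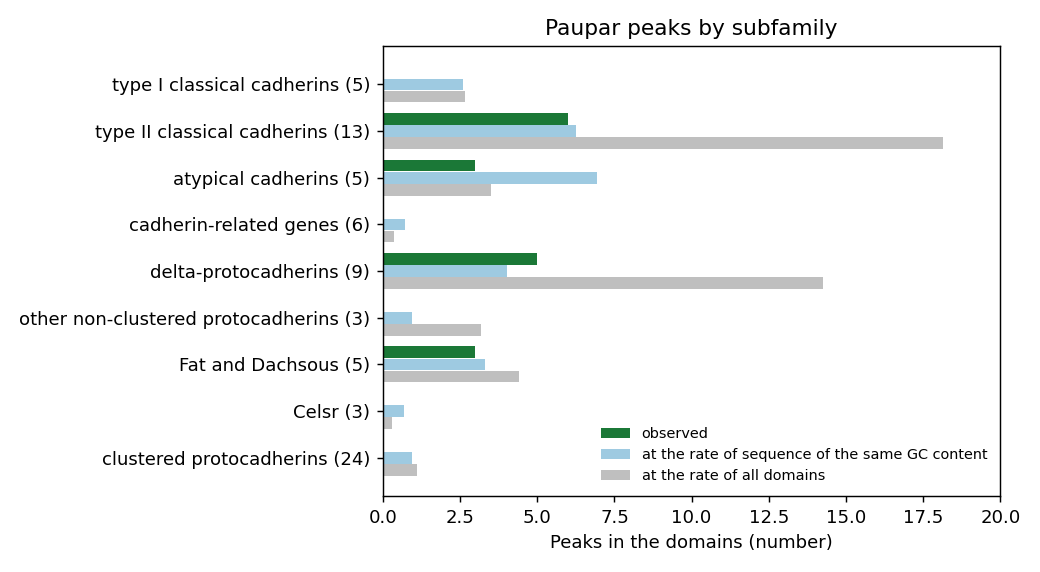
Number of peaks in the domains of each subfamily (horizontal axis; number of genes in brackets) as observed (green), at the rate of genomic sequence of the same GC content (blue) and at the rate of all domains (grey). Type II cadherins held 6 peaks, against 6.27 and 18.1, and delta-protocadherins 5, against 4.03 and 14.3.

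**Figure D5:**
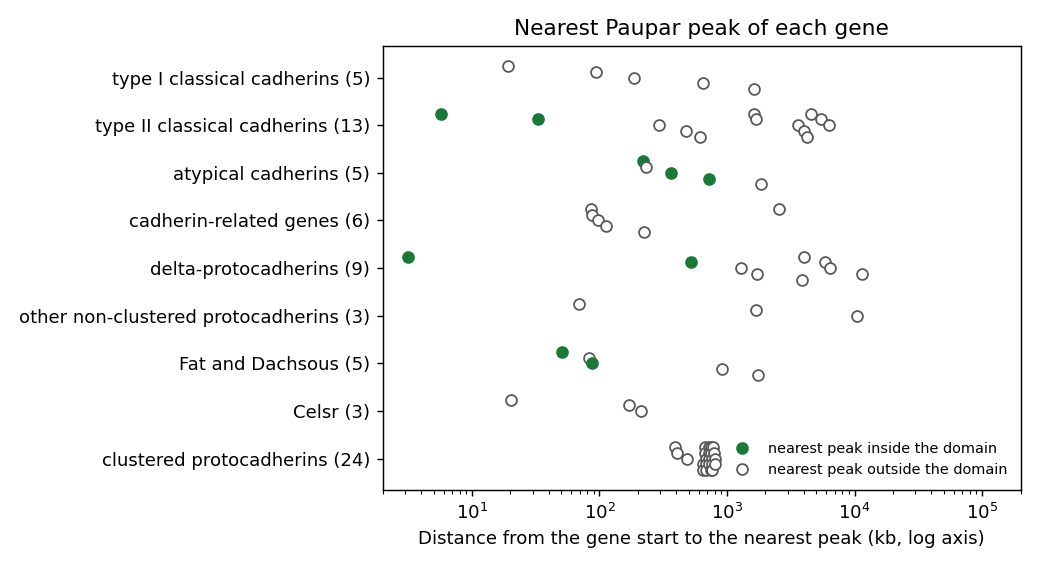
Distance from the start of each of the 73 records to its nearest *Paupar* peak (kb, logarithmic axis) by subfamily, filled where that peak lies in the gene's own domain and open where it lies outside. *Cdh5* appears as an open circle, as its nearest peak (292 kb) is outside its domain; the clustered protocadherins form a group between 389 and 809 kb.

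Genes that work with cadherins were examined in the same way, from lists written in view of earlier results on these peaks. Of 10 catenin genes, which link cadherins to the cytoskeleton, 1 held a peak (10%). This was *Ctnnb1*, which encodes beta-catenin and had 3 peaks in a domain of 698 kb, the nearest 150727 bp upstream with a score of 35.43. Of 11 planar polarity genes that act with Celsr proteins, 2 held peaks (18.2%). *Prickle2* had 3, the nearest 14119 bp upstream with a score of 15.8, and *Prickle1* had 1, 71551 bp downstream with a score of 12.44. None of 5 proteases that cleave cadherins and none of 10 regulators of the protocadherin clusters held one. Of 12 further members of the superfamily, the desmosomal cadherins and calsyntenins, 1 held a peak (8.33%), the desmocollin gene *Dsc3*. All these shares stand beside the 16.4% of all genes. The domains of *Ctnnb1*, *Prickle1*, *Prickle2* and *Dsc3* measured 562 to 1061 kb, and 37.7% of all genes with domains over 500 kb held a peak. *Ctnna2*, *Ctnna3*, *Ctnnd2* and *Clstn2* also had domains over 500 kb, without a peak.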

How the data were processed

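CHART-Seq was performed in N2A cells, and samples were mapped to *Paupar* (2), *LacZ* (2) and input (1) by their labels. Reads were aligned by the authors to mm9 (bowtie, reads with a single best position only). MACS2 was then run on each pull-down with *LacZ* or input DNA as the control, and peaks common to both comparisons were kept. They deposited 1 list of 2849 peaks with mm9 coordinates and a score; that the score is −log10 q is not stated, and it was used only for ranking and filtering. How the pull-downs were joined is not given in the sources used here. No column of values per sample was left unused (0), and depth is unknown.

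Domains were built from the protein-coding genes of the NCBIM37 annotation (5 kb upstream, 1 kb downstream, extension of at most 1 Mb), and a peak was placed by its midpoint. GC rates used 8 classes of 100 kb windows. Counts are given beside those of all genes, without a test. Oligonucleotide matches were exact, on both strands, with flanks of equal width on each side of a peak. The members and gene lists were chosen with earlier results of these data known. Genes were named by a fixed rule: members with a peak within 100 kb of the start, those with the most peaks and the highest density, those holding the peaks of highest score, and a list of classical cadherin, Celsr, Fat and Dachsous genes; other names were chosen after their values were seen. The steps were tested on simulated data. Alternatives are given in the closing observations. Data from microarrays, DNase I mapping and reporters were not used here. The software was Python 3.11.15, numpy 2.4.6, pysam 0.24.0 and matplotlib 3.10.9.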

Additional observations from a re-analysis of the deposited data

How the results depend on the processing

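The ratio of peak density in the members' domains to that in other genes' domains (0.351) ranged from 0.226 to 0.695 over 13 alternatives and was below 1 in all 13. The largest moves came from extending domains by at most 100 kb (0.695) and from the rate of sequence of the same GC content (0.643). The 26.4 peaks expected at the same GC content lie within the counting interval of the observed 17 (9.90 to 27.2). The share of members with a peak (13.7%) ranged from 6.85% to 19.6% over 12 alternatives. It was 6.85% with an extension of at most 100 kb (other genes 11.9%) and 6.85% with peaks given to the nearest start only (other genes 9.96%). The order against other genes turned without chromosome 18 (19.6% against 16.5%) and with each protocadherin cluster counted as 1 gene (19.2% against 16.4%), and in none of the other 10. The number of peaks (17) became 8 with the shorter extension, 11 with the nearest start only, 11 with a score of at least 10, and 9 without chromosome 8. The share of peaks with an oligonucleotide match (17.6%) was 0 at a minimum of 11 nt and 0 at 12 nt. With predicted and Riken genes no longer ending a domain, an alternative chosen after seeing the data, *Cdh3*, *Cdh4* and *Cdh15* gained 1 peak each and 13 members held a peak (17.8%, other genes 18.8%). The other shares and ratios stayed within the counting interval of the main value. The other peak counts ran from 13 (without chromosome 18) to 19. These counts and those of 11 lie within the interval around 17 (9.90 to 27.2). No paired analysis was possible because the list gives no value per library, and for the same reason no replicate could be left out. The peak list gives no depth, so that peaks too weak to be called cannot be counted here.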

Other observations

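Other gene families of neuronal wiring were set beside the cadherins, in lists chosen after seeing the data. The axon guidance list took genes by symbol (ephrins and their receptors, netrins and their receptors, semaphorins, plexins, Slit and Robo genes). It also took in *Unc5cl* through the start of its symbol. Among its 69 records, 19 held a peak (27.5%, beside 16.4% of all genes). They had 29 peaks in 37.0 Mb of domain (0.784 per Mb), and 30.8 at the rate of the same GC content. Among 46 records of other neural adhesion genes (contactins and contactin-associated proteins, neurexins, neuroligins, Ncam, Dscam, the Lsamp, Negr1, Ntm and Opcml group, and leucine-rich repeat families), 10 held a peak (21.7%), with 20 peaks in 46.3 Mb (0.432 per Mb) and 25.5 at the rate of the same GC content. The median domains of these families were 179 kb and 1085 kb, and 23.8% of all genes with domains of 100 to 500 kb and 37.7% of those with longer ones held a peak. The cadherins, with 0.399 per Mb, had a density close to that of the neural adhesion genes, and the differences between the families were not tested.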
